A study of Triticum aestivum with 4 samples.

Results

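A set of 101 of 61179 probe sets stood high on a single array of developing wheat (Triticum aestivum) seed. A probe set, a group of short probes that reads a transcript on an Affymetrix array, belonged to the set when its value in Domain replicate 1 was more than 4 times the highest value of the other 3 arrays. The only member with a readable gene name was hsp16.9A (LOC543277), a small heat shock gene. The gene tables listed a gene for only 1273 of the 61179 probe sets. By symbol or synonym, 2 of these matched a list of heat shock and chaperone terms that included FKBP. Of the 101 members, 90 had no listed gene. From symbols and synonyms, a heat shock identity could therefore be checked for 1 member only. The set is described here by its rule as the probe sets high in Domain replicate 1. The members were selected on the measured ratios of all 4 arrays, so the high values in Domain replicate 1 are a description and carry no test.

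The samples were seed harvested at 5 days after anthesis from wheat grown in the field. They came from Domain and RL4452, a pair of genotypes that are parents of a mapping population, with 2 biological replicates each. Plants of both genotypes stood in a lattice of rows 1.47 m long, and the labels give no heat exposure or other treatment for any of the 4 samples. Spikes were tagged at anthesis, and the whole seed content of a tube was ground for RNA, so a sample is a mixture of tissues of many seeds. Polyadenylated RNA of each sample was used for 1 array, and replicates were numbered 1 and 3 within each genotype. The values are linear ratios of each probe set to its own median over the 4 arrays, so a value compares arrays for the same probe set and never levels between genes. In a whole-seed sample, fewer cells of a type and less RNA per cell cannot be told apart.

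Small heat shock proteins are chaperones that bind unfolding proteins without using ATP and hold them until other chaperones refold or clear them. In plants their genes are nearly silent in most vegetative tissue under mild conditions. They are induced through heat shock transcription factors when cells are heated, and some are also expressed in seeds as they mature. The protein Hsp16.9 of wheat belongs to the cytosolic class of this family. FKBP proteins, the other named group considered here, are peptidyl-prolyl isomerases that can act with the chaperone HSP90.

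Domain replicate 1 held more such probe sets than any other array. Under the same rule, 43 probe sets were high in Domain replicate 3, 8 in RL4452 replicate 1 and 1 in RL4452 replicate 3. These are 0.0703%, 0.0131% and 0.00163% of the probe sets, against 0.165% for Domain replicate 1. In the other direction, 0 probe sets in Domain replicate 1 lay more than 4 times below the lowest other array, against 13, 30 and 81 in the other arrays in the same order. The deviations of Domain replicate 1 past 4-fold were thus all increases, while those of RL4452 replicate 3 were nearly all decreases. Past 10-fold, 33 probe sets were high in Domain replicate 1, 8 in Domain replicate 3, and none in either RL4452 array.

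**Figure D1:**
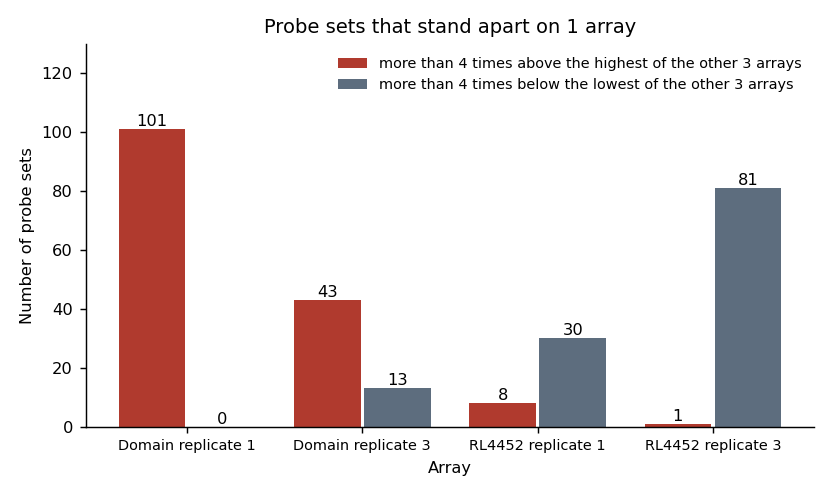
Number of probe sets on each of the 4 arrays that were more than 4 times above the highest, or more than 4 times below the lowest, of the other 3 arrays. Domain replicate 1 had 101 in the first class and 0 in the second, and RL4452 replicate 3 had 1 and 81.

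On the control differences and the SD of the log2 ratios, Domain replicate 1 lay inside the range of the 4 arrays. Its median ratio was the lowest, at 0.987 against 0.998 to 1.007 on the others. The median log2 difference between 3' and 5' probe sets of 7 wheat control transcripts was 0.00 in both Domain arrays. It was -0.22 and 0.40 in RL4452 replicates 1 and 3. For 12 pairs of added control transcripts it was -0.23 in both Domain arrays, and -0.59 and 1.25 in RL4452 replicates 1 and 3. These differences are relative to the 4-array median, so they give no RNA integrity of an array by itself. The SD of the log2 ratios over all probe sets was 0.35 in Domain replicate 1 and ran from 0.30 to 0.40 over the 4 arrays. Each array was hybridised on a day of its own, and Domain replicate 1 came first. Domain replicate 1 and RL4452 replicate 3 were each alone on a fluidics module, and the other arrays shared 1. The seed sample, the hybridisation day and the module of Domain replicate 1 therefore cannot be told apart.

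Member sizes ran from 4.02-fold to 73.4-fold over the highest other array, with a median of 6.12-fold. Of the 101 members, 4 exceeded 50-fold, 14 exceeded 20-fold, 33 exceeded 10-fold and 67 exceeded 5-fold. These sizes depended on the scaling. After quantile normalization, which gives all arrays the same distribution of values and so pulls in the longer upper tail of Domain replicate 1, the same 101 ran from 2.29-fold to 19.7-fold with a median of 3.44-fold, and 36 exceeded 4-fold. Ratios in Domain replicate 1 ran from 4.08 to 81.9 with a median of 6.97. The members just inside the rule were Ta.9332.1.S1_x_at at 4.02-fold, Ta.9251.1.S1_x_at at 4.05-fold and TaAffx.133249.1.A1_at at 4.06-fold. Just outside it lay TaAffx.92891.1.A1_at at 3.98-fold, TaAffx.128712.4.S1_x_at at 3.89-fold and TaAffx.105136.1.S1_at at 3.87-fold. No gap separates the set from the probe sets below it, and 168 probe sets exceeded 3-fold.

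**Figure D2:**
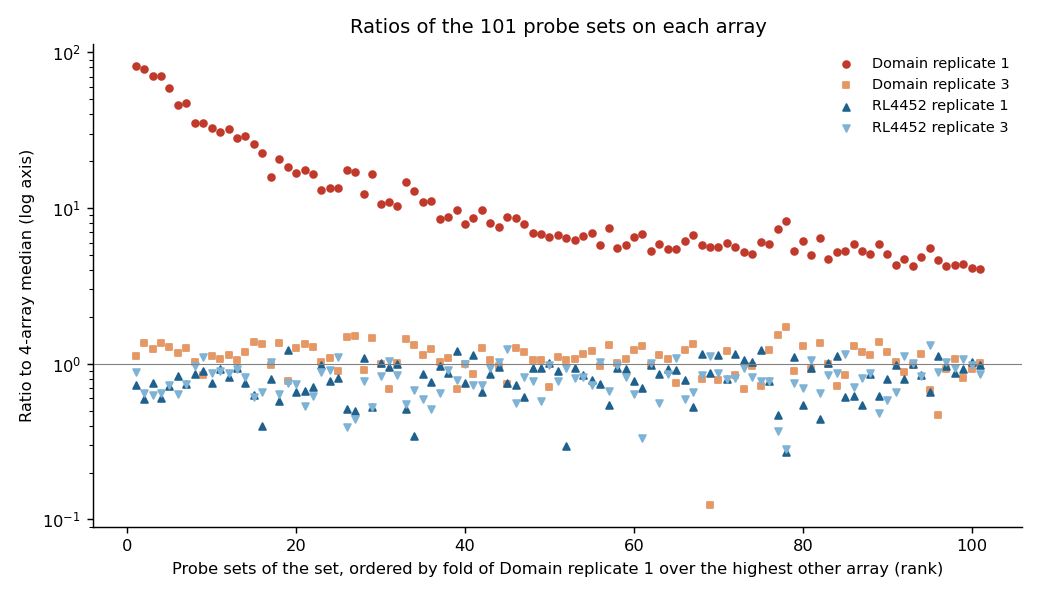
Ratio to the 4-array median (log axis) of each of the 101 probe sets on the 4 arrays, ordered along the x axis by the fold of Domain replicate 1 over the highest other array. Domain replicate 1 falls from 81.9 to 4.08, while the other 3 arrays stay between 0.124 and 1.72.

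The small heat shock gene hsp16.9A, read by Ta.24332.1.S1_at, had a ratio of 77.7 in Domain replicate 1, 1.36 in Domain replicate 3, 0.593 in RL4452 replicate 1 and 0.644 in RL4452 replicate 3. It was 57.3-fold higher in Domain replicate 1 than in Domain replicate 3, the next highest array, which in turn lay above both RL4452 arrays. It was 10.0-fold after quantile normalization, and 121-fold over the higher RL4452 array with Domain replicate 3 left out. FKBP70 (LOC543314), the other probe set of the heat shock and chaperone list, had ratios of 2.29 in Domain replicate 1, 1.08 in Domain replicate 3, 0.923 in RL4452 replicate 1 and 0.900 in RL4452 replicate 3. It was not a member, and it was highest in the same array as hsp16.9A, at 2.12-fold over the next. By the same measure 0.680% of all probe sets exceeded 2-fold.

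LOC542846 was represented by 2 probe sets, both members. Ta.261.1.S1_at had ratios of 70.5 in Domain replicate 1, 1.35 in Domain replicate 3, 0.598 in RL4452 replicate 1 and 0.648 in RL4452 replicate 3. Ta.28758.1.S1_at had 32.9, 1.13, 0.757 and 0.872 on the arrays in the same order. The folds over the next array were 52.2 and 29.2, and after quantile normalization 9.15 and 7.67. With Domain replicate 3 left out, the first was 109. Both probe sets placed the arrays in the same order, with Domain replicate 3 second and RL4452 replicate 1 lowest. The symbols and synonyms read from the gene tables give no role for LOC542846 or for the other genes listed by number alone.

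Of the 101 members, 11 had a listed gene, and these belonged to 8 genes. That is 10.9% of the set, against 2.08% of all probe sets, a description of the array's annotation with no test. The 6 further listed genes had smaller folds than hsp16.9A and LOC542846. LOC543421 reached 13.1-fold, LOC543477 12.3-fold, LOC543416 11.2-fold and LOC543368 9.02-fold, each from 1 probe set. In all 4 of these genes Domain replicate 3 was the second highest array.

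LOC780664 had 4 probe sets, of which 2 were members at 5.42-fold and 4.20-fold. Its other 2 probe sets fell short of the rule, at 3.51-fold and 3.43-fold. All 4 were highest in Domain replicate 1, where their ratios ran from 3.53 to 5.83. On the other 3 arrays their ratios lay between 0.658 and 1.11. For the 2 members the rule fixes this gap, and the other 2 differ from a member only in the suffix of the name. LOC780664 is the only gene of the set with probe sets outside it.

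LOC543404 had 2 probe sets, both members, that differed on the other arrays. Ta.28083.1.S1_at had ratios of 8.25 in Domain replicate 1, 1.72 in Domain replicate 3, 0.270 in RL4452 replicate 1 and 0.285 in RL4452 replicate 3. In this probe set the Domain and RL4452 arrays did not overlap, and Domain was the higher. TaAffx.51843.1.S1_at had 4.69, 0.883, 0.797 and 1.12 in the same order. There RL4452 replicate 3 was the second highest array. Domain replicate 1 was the highest and RL4452 replicate 1 the lowest array in both probe sets.

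**Figure D3:**
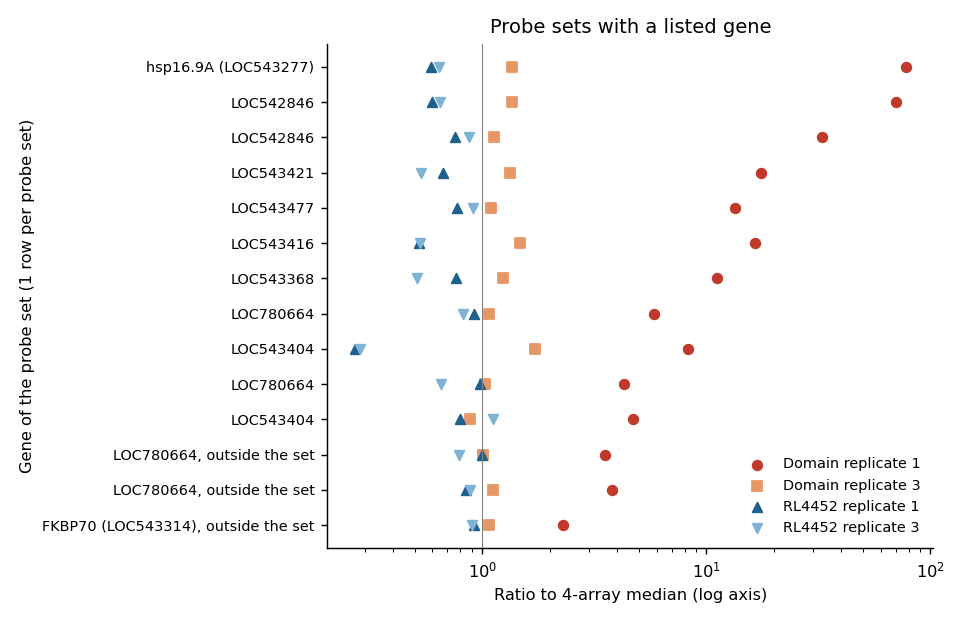
Ratio to the 4-array median (log axis) on each array, for the 11 members with a listed gene, the 2 LOC780664 probe sets outside the set, and FKBP70. Domain replicate 1 is the highest array in every row, from 77.7 for hsp16.9A to 2.29 for FKBP70, and Domain replicate 3 is second in most rows.

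Most of the highest members had no listed gene. Ta.24801.1.S1_at, the largest, had ratios of 81.9 in Domain replicate 1, 1.12 in Domain replicate 3, 0.734 in RL4452 replicate 1 and 0.884 in RL4452 replicate 3, which is 73.4-fold over the next array. TaAffx.34482.1.S1_at had 71.0, 1.25, 0.755 and 0.626 in that order, or 57.0-fold. Of the remaining unlisted members among the 10 largest, Ta.202.1.S1_at reached 46.6-fold, TaAffx.100415.1.A1_at 39.5-fold, Ta.12042.1.S1_at 37.7-fold, Ta.5776.1.S1_at 34.5-fold and Ta.8665.1.S1_at 31.9-fold. In 9 of the 10 largest members Domain replicate 3 was the second highest array, and the exception was Ta.8665.1.S1_at, where RL4452 replicate 3 was second. The profiles most like that of hsp16.9A over the 4 arrays, by Euclidean distance between log2 ratios, were those of Ta.261.1.S1_at at 0.14, TaAffx.34482.1.S1_at at 0.39, Ta.202.1.S1_at at 0.52, Ta.24801.1.S1_at at 0.62 and Ta.12042.1.S1_at at 0.81. All 5 are members, and this ordering describes 4 arrays that the rule had used.

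The set was spread over many transcripts. Probe set names carry the number of a transcript cluster, a group of sequences taken to come from the same or closely related transcripts, and the 101 members fell into 87 clusters. Of these clusters, 77 held 1 member, 7 held 2, 2 held 3, and 1 held 4. The cluster with 4, Ta.6123, was in the set with every probe set it has on the array, from 5.26-fold to 12.8-fold. All 3 probe sets of Ta.12225 were members too, from 4.90-fold to 10.5-fold. Ta.9332 had 3 members, from 4.02-fold to 6.39-fold, and 2 further probe sets at 0.990-fold and 1.46-fold.

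The other probe sets of these clusters were left out by the rule, so their values are not free of it. Some differ from a member only in the suffix, such as Ta.5818.3.S1_at and Ta.5818.3.S1_x_at. Several of those above 2-fold came from the clusters TaAffx.128896 and Ta.5818. The 87 clusters held 151 probe sets, and 64 clusters had a single probe set on the array. The 23 with several held 37 members and 50 probe sets outside the set. In 5 of the 23 clusters every probe set was a member, and in 18 some were not. Among the 50 outside, 12 (24.0%) exceeded 2-fold over the highest other array, against 0.680% of all probe sets, while 20 were at or below 1-fold. Their median was 1.08-fold, against 0.850-fold over all probe sets, and they ran from 0.486-fold to 3.85-fold. Part of this spread came from 1 large cluster, TaAffx.128896, with a member at 6.03-fold and 16 other probe sets between 0.486-fold and 3.85-fold. Probe sets outside the set can be no higher than 4-fold by the rule, so these values are capped, and no test was made of them.

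**Figure D4:**
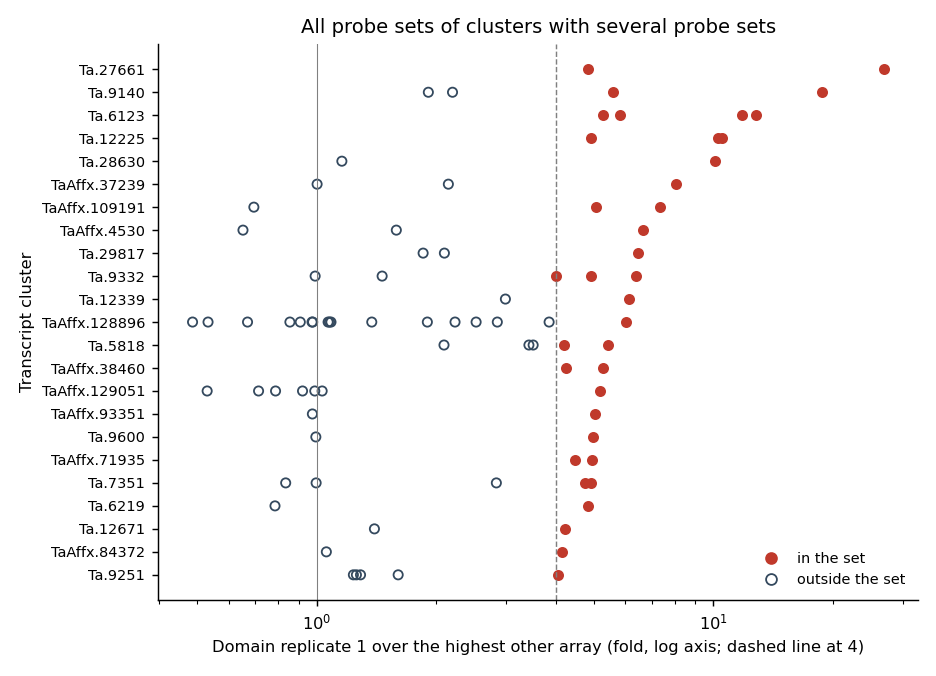
Fold of Domain replicate 1 over the highest other array (log axis) for every probe set of the 23 transcript clusters that have a member and several probe sets. Filled points are the 37 members and open points the 50 probe sets outside the set. The dashed line marks 4-fold, and the open points reach from 0.486 to 3.85.

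In the share of shared-probe and antisense probe sets the members were close to the array at large. Probe sets whose name marks probes shared between transcripts (_a_at, _s_at or _x_at) made up 19 of the 101 members, or 18.8%, against 20.8% of all probe sets. In the set high in Domain replicate 3 they were 31 of 43. Probe sets with A in the name, which marks the antisense reading of the source sequence, were 18 of 101, or 17.8%, against 17.4% of all. Names starting with Ta were 68 of 101, or 67.3%, against 51.4% of all, and the remaining 33 started with TaAffx.

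The listed genes that mark other tissues of the seed sample were not among the members. Only 0.165% of all probe sets were members, so lists this short would seldom hold one, and their absence says little about these tissues. The lists were read from the same gene tables, and none of their probe sets exceeded 1.29-fold over the highest other array. Green tissue held 31 probe sets of 3 genes, mostly the plastid gene rbcL, with a median log2 ratio of -0.03 in Domain replicate 1. Anther genes, the raftins, held 4 with a median of 0.04. Storage proteins and inhibitors of the endosperm held 26 with a median of 0.10 in Domain replicate 1 and 1.50 in Domain replicate 3. Embryo and dehydration genes held 7 with a median of -0.15 in Domain replicate 1. The summed share of any of these tissues cannot be read from ratios, and their part in the result was not tested.

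On the other 3 arrays the members spread more widely than the array at large. In all 101 members the highest and the middle of these 3 ratios averaged 1 within 0.001, which follows from the division by the 4-array median. The comparison between the 3 arrays is not fixed by that division. The rule did use the highest of the 3, so their values in the members are a description. The highest exceeded the lowest by a median of 1.56-fold, against 1.31-fold over all probe sets. In 70 members the 3 arrays lay within 2-fold of each other (69.3%, against 89.8% of all probe sets), and in 3 members they spread by 4-fold or more. Those 3 were Ta.9600.1.S1_x_at at 9.06-fold, Ta.28083.1.S1_at of LOC543404 at 6.35-fold and Ta.27661.1.S1_at at 4.15-fold.

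Among these 3 arrays, whose highest value the rule had used, Domain replicate 3 was most often the highest. The counts that follow are a description with no test. It exceeded both RL4452 arrays in 67 of 101 members (66.3%, against 33.4% of all probe sets) and lay below both in 18 (17.8%, against 30.3%). Its difference from the mean of the RL4452 arrays had a median of 0.38 on the log2 scale, or 1.30-fold, against a median of 0.01 over all probe sets. It was at least 2-fold above the RL4452 mean in 20 members (19.8%, against 1.76% of all). It was at most a 2-fold fraction of that mean in 2 members (1.98%, against 1.81%). The count of 67 was the same after quantile normalization and after centring each array on its median. With 1 probe set per cluster it was 58 of 87.

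Domain replicate 3 was the highest of the 3 arrays in a greater share of the larger members, a difference that was not tested. The size that splits the members divides by the highest of these same 3 arrays, so the shares are a description. Of the 33 members above 10-fold, Domain replicate 3 exceeded both RL4452 arrays in 26 (78.8%), with a median log2 difference of 0.60. Of the other 68 it did so in 41 (60.3%), with a median of 0.29. Among the 315 probe sets between 2-fold and 4-fold in Domain replicate 1, which are not members, it was the highest of the 3 arrays in 156 (49.5%). The RL4452 arrays differed from each other in both directions in the members, and replicate 3 was the higher in 50 of 101. The median absolute log2 difference between them was 0.26 in the members and 0.24 over all probe sets.

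**Figure D5:**
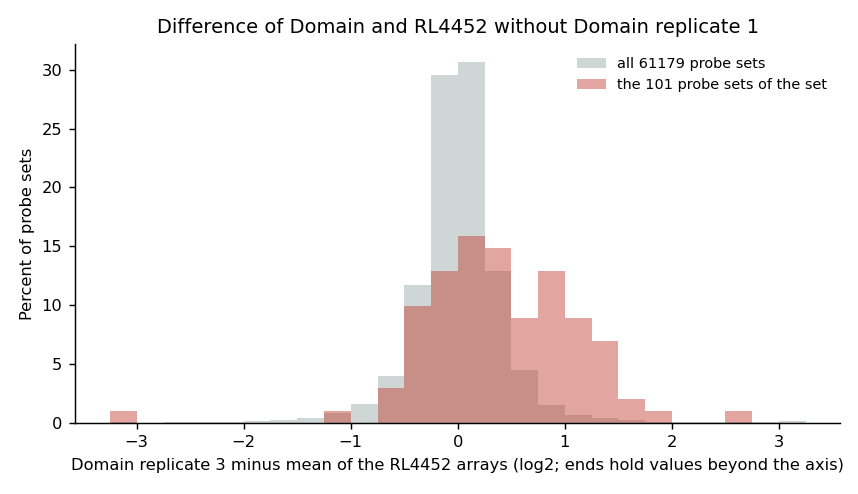
Distribution of the log2 difference between Domain replicate 3 and the mean of the RL4452 arrays, as percent of probe sets, for all 61179 probe sets and for the 101 of the set. The set is shifted to the right, with a median of 0.38 against 0.01, and the member furthest to the left is Ta.9600.1.S1_x_at. The rule had used the highest value of these arrays, and the shift was not tested.

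A fit without Domain replicate 1 compared the other 3 arrays, whose highest value the rule had used, so the members' counts in it are a description. With limma over all 61179 probe sets (Domain replicate 3 against 2 RL4452 arrays), 0 members and 0.0% of all probe sets had an adjusted p under 0.05. The smallest adjusted p of a member was 0.229. The fit has 1 residual degree of freedom and called no probe set of the array, so the absence of calls says nothing about the members. At an unadjusted p under 0.05 in limma there were 32 members (31.7%), against 5.38% of all probe sets. Of these, 30 were lower in RL4452 (29.7%, against 2.57% of all probe sets) and 2 were higher. Nothing is read from these shares. The fit assumes that the lone Domain array varies like the RL4452 arrays.

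The members furthest apart in that fit were from LOC543404 and an unlisted transcript. Ta.28083.1.S1_at had a log2 difference of -2.63 with SE 0.23 (RL4452 minus Domain replicate 3), with a limma adjusted p of 0.229. Ta.9600.1.S1_x_at had ratios of 5.60 in Domain replicate 1, 0.124 in Domain replicate 3, 0.876 in RL4452 replicate 1 and 1.12 in RL4452 replicate 3. The highest and the lowest value of the 4 arrays were both in Domain, and its log2 difference was 3.00 with SE 0.28 and a limma adjusted p of 0.243. LOC543416 had -1.48 with SE 0.22, and hsp16.9A had -1.13 with SE 0.23 (limma adjusted p of 0.438 and 0.614). None of these passed the threshold.

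In the genotype comparison with all 4 arrays, the members were lower in RL4452 without being called. The median log2 difference (RL4452 minus Domain) was -1.88, against 0.01 over all probe sets, and 100 of 101 were below 0, which the choice of the members largely fixes. Limma called 0 of the 101 members at an adjusted p under 0.05, against 0.28% of all probe sets in either direction, and 19 members (18.8%, against 5.85% of all probe sets) had an unadjusted p under 0.05. The median SE of the members was 0.94, against 0.22 over all probe sets, since the Domain replicates lay far apart. For hsp16.9A the difference was -4.05 with SE 1.86 (limma adjusted p of 0.911). The smallest adjusted p in limma was 0.328, for Ta.28083.1.S1_at of LOC543404 at -3.76 with SE 0.74. This contrast holds the array that chose the members, so nothing is read from these counts.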

How the data were processed

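Transcript levels were measured on 4 Affymetrix wheat arrays, 2 each of Domain and RL4452. The deposited values are linear ratios. The submitters' processing notes name RMA, and the sources used here give neither its version nor the later division. The 4-array median was within 0.002 of 1 for 99.5% of 61290 features. The module and hybridisation day, other values of no expression unit, were read per the file headers. The 111 AFFX controls were left out. Ratios were log2-transformed and fitted with limma 3.58.1 in R 4.3.3 (genotype only, two-sided, Benjamini-Hochberg over 61179 probe sets, threshold 0.05). On simulated differences the 4-array fit recovered 8% at 4-fold and 68% at 8-fold, with 5 false among 90 calls. The fit without Domain replicate 1 recovered 0% even at 32-fold. Ratios keep no depth or signal over background, so the number of arrays limits the precision. Nothing in the labels says that replicates came from separate field plots, so p-values measure the spread between these samples.

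Genes came from the array annotation, updated through the table of IWGSC CS RefSeq v2.1. A listed gene was found for 1273 probe sets and a readable name for 200. Only symbols and synonyms were read, so gene descriptions were not searched. No promoter or protein sequence was used here, so the planned promoter motif search was not run. Named were all members with a listed gene, the 10 largest, 3 on each side of the threshold, the 3 clusters with most members, the heat shock list, and 5 profiles like hsp16.9A. Ta.9600.1.S1_x_at and Ta.27661.1.S1_at, and the large cluster TaAffx.128896, were singled out after their values were seen. The members and lists were chosen with earlier results of these data known. Tables and figures used Python 3.11.15, pandas 2.3.3, numpy 2.4.6 and matplotlib 3.10.9. Alternatives were other scalings, other folds, arrays left out, shared probes and a replicate block.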

Additional observations from a re-analysis of the deposited data

How the results depend on the processing

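The number of members was 36 after quantile normalization (all 36 among the 101), and the median log2 fold of the 101 over the highest other array was then 1.78, against 2.61. The number of members was 168 at 3-fold, 67 at 5-fold, 38 at 8-fold and 167 against the mean of the other arrays. Leaving out each other array gave 117 to 282 members, all holding the 101, and a median log2 fold from 2.68 to 3.10. Leaving an array out can only lower or keep the highest other value. These counts and folds therefore could not fall, and the 101 had to remain. The count was highest without Domain replicate 3, at 282. Genotype calls over all probe sets were 171, and 0 to 128 with an array left out, with 0 without Domain replicate 1 (3292 at an unadjusted p under 0.05 in limma) or without Domain replicate 3 (3418), and 101 without RL4452 replicate 1. With a replicate block there were 0 calls (4555 at an unadjusted p under 0.05 in limma). No label says that a shared replicate number pairs samples. Across probe sets the difference between replicates 1 and 3 in Domain correlated with that in RL4452 at 0.143. Members called were 0 in each of these fits. The difference of Domain replicate 3 from RL4452 in the members had a median log2 from 0.31 to 0.41 over its alternatives. Of 170 values for 34 named probe sets under alternatives, 123 moved by less than 0.35 log2, and the smallest was 0.87, so none changed sign. Most of these values left out another array, which cannot lower a fold or change its sign. Quantile normalization lowered the fold of every named probe set, for hsp16.9A from 5.84 to 3.33 on the log2 scale. With 3 arrays, a replicate block was not run. Background and low-signal limits cannot be read from ratios.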
